A study of Pan troglodytes with 217 samples.

Results

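The keratins of simple epithelium are described here in single cells of chimpanzee blastoids. They are 5 genes chosen by name, the type II keratins KRT8 (ENSPTRG00000046526) and KRT7 (ENSPTRG00000004969) and the type I keratins KRT18 (ENSPTRG00000004996), KRT19 (ENSPTRG00000009168) and KRT23 (ENSPTRG00000009137), out of 56 keratin genes with a symbol and 32992 genes in all. Each of the 5 matched 1 identifier, and all 5 had a read in at least 20 cells, which is the minimum for entering the comparisons below. Blastoids are stem cell models of the blastocyst, and these were made from naive chimpanzee induced pluripotent stem cells and collected on day 4. The cells were kept in PXGL (the MEK inhibitor PD, XAV939, Gö6983 and LIF) with A6E (activin A, IL-6 and the EZH2 inhibitor EPZ-6438). They were clustered in PALY (PD, the TGF-beta receptor inhibitor A83, the lipid LPA and the ROCK inhibitor Y-27632), then moved to ALY, which lacks PD, and to N2B27 alone. The mural trophectoderm was cut away by hand and dissociated apart from the rest, and each cell was made into its own SMART-seq2 library of full-length cDNA. No label names the blastoid, the line or the batch of origin, so all cells are 1 sample of 1 condition. Cells are not replicates, and no test was computed.

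Keratin filaments are obligate heteropolymers, in which a type I chain pairs with a type II chain. KRT8 and KRT18 are the first pair to be made in the embryo and are the basic pair of single-layered epithelia, to which KRT7, KRT19 and KRT23 are added in some ducts, glands and barrier tissues. The trophectoderm is the first epithelium of the embryo. It surrounds the epiblast, the source of the body, and the hypoblast, which lines the cavity. It later becomes trophoblast, where KRT7 is in common use as a marker. In the annotation used for gene names, KRT18 and KRT8 lie next to each other, KRT19 lies next to KRT15, and KRT23 lies between KRT39 and KRT20.

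Of the sequenced cells, 24 (11.1%) had fewer than 8000 genes with a read and were left out. The others had 1679888 to 25630392 reads each, with a median of 3960857. They were clustered without any keratin gene and fell into 50 epiblast-like, 32 hypoblast-like, 72 early trophectoderm-like and 39 late trophectoderm-like cells. The same classes formed when keratins were included. Hand dissection means that these numbers are not the make-up of a blastoid. The summed markers of each label were highest in its own class, though not absent elsewhere. Levels are in CPM, the reads of a gene scaled to a total of 1000000 per cell. The summed level of the epiblast markers had a median of 2329.8 CPM in epiblast-like cells. The hypoblast markers had a median of 1499.5 CPM in hypoblast-like cells, and the trophectoderm markers had medians of 2028 CPM in early and 1999 CPM in late trophectoderm-like cells. Epiblast markers also had a median of 471 CPM in hypoblast-like cells. Hypoblast markers had one of 495 CPM in early cells, where LAMA1, a laminin gene on that list, was at 405 CPM pooled against 166.7 CPM in hypoblast-like cells. "Late" is the trophectoderm-like cluster with the higher pooled CCR7, a chemokine receptor gene, at 367 against 23.7 CPM. It also had lower CDX2, an early trophectoderm factor, at 0.688 against 21.6 CPM. Amnion markers had summed medians of 237.01, 327, 44.9 and 37.3 CPM in epiblast-like, hypoblast-like, early and late cells, of which BAMBI made up most in the first 2 classes. Mesenchymal markers had medians of 3.55 CPM or less in each class. No doublet caller was run. Among the epiblast-like cells, 7 reached the trophectoderm marker sum of the lowest trophectoderm-like cell, 602 CPM, as did 2 hypoblast-like cells.

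KRT8 and KRT18, the basic pair, had reads in every passing cell, and their level separated trophectoderm-like from other cells more than presence did. Levels are compared between classes within a gene, since reads were not corrected for gene length. In single epiblast-like cells KRT8 ranged from 91.1 to 3026 CPM with a median of 779 CPM. In hypoblast-like cells it ranged from 229.2 to 3299 CPM with a median of 1111 CPM. Trophectoderm-like cells were mostly above these medians, with 2 late cells below the first and 4 below the second. KRT8 ranged from 1307 to 7862 CPM in early cells, with a median of 3616 CPM, and from 671 to 5153 CPM in late cells, with a median of 2106 CPM. The ranges overlapped between classes, and 51 trophectoderm-like cells lay above the highest epiblast-like cell.

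KRT18, the type I partner of KRT8, separated the classes more widely. Its per-cell levels in epiblast-like cells ran from 78.6 to 2295 CPM (median 626 CPM), and in hypoblast-like cells from 268 to 3081 CPM (median 816 CPM). In early trophectoderm-like cells KRT18 ran from 1497 to 10361 CPM (median 4022 CPM), and in late cells from 891 to 3921 CPM (median 1713 CPM). Every trophectoderm-like cell was above the epiblast-like median and above the hypoblast-like median, and 76 of them were above the highest epiblast-like cell.

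KRT19, a short type I keratin without the usual tail, varied most among epiblast-like and hypoblast-like cells. It ranged from 0.817 to 1479 CPM in epiblast-like cells, with a median of 145.1 CPM. In hypoblast-like cells it ranged from 0 to 1864 CPM, with a median of 253.2 CPM, and the single passing cell without a KRT19 read was among them. Trophectoderm-like cells were higher and less spread. Early cells ranged from 231.2 to 4103 CPM with a median of 1767 CPM, and late cells from 86.3 to 3970 CPM with a median of 1751 CPM. The early and late medians of KRT19 were thus nearly equal, unlike those of KRT18. On the log2(CPM + 1) scale the SD of KRT19 between cells was 1.97 in epiblast-like and 2.28 in hypoblast-like cells, against 0.83 in early and 1.00 in late trophectoderm-like cells.

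**Figure D1:**
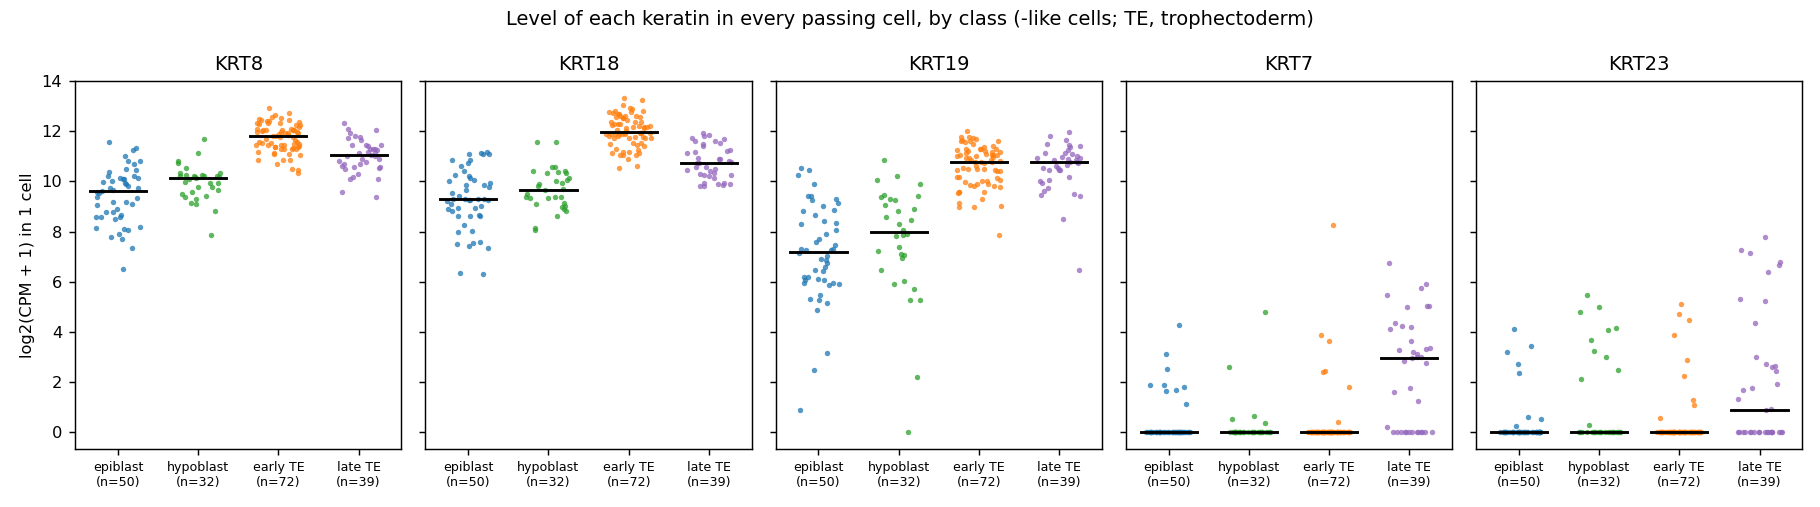
Per-cell level of the 5 keratins, as log2(CPM + 1), in 50 epiblast-like, 32 hypoblast-like, 72 early and 39 late trophectoderm-like cells (TE, trophectoderm); each point is 1 cell and each black line the class median. KRT8 and KRT18 are present in every cell, and KRT19 in every cell but 1, which is hypoblast-like. KRT8, KRT18 and KRT19 are higher in both trophectoderm-like classes, whereas KRT7 and KRT23 are at 0 in most cells outside the late class.

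KRT7 and KRT23 were sparse genes. KRT7, a type II keratin of ducts and trophoblast, had a read in 26 of 39 late trophectoderm-like cells (66.7%, exact Clopper-Pearson 95% interval 49.8% to 80.9%). It had a read in 7 of 72 early cells (9.72%, 4.0% to 19.01%), in 9 of 50 epiblast-like cells (18%, 8.58% to 31.4%) and in 5 of 32 hypoblast-like cells (15.6%, 5.28% to 32.8%). Among late cells KRT7 ranged from 0 to 105.2 CPM with a median of 6.85 CPM. Its median was 0 in the other 3 classes, yet the highest cell of all was an early one, at 308 CPM, and the next early cell had 13.5 CPM.

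KRT23, a type I keratin, had a read in 20 of 39 late cells (51.3%, 34.8% to 67.6%), in 11 of 32 hypoblast-like cells (34.4%, 18.6% to 53.2%), in 8 of 50 epiblast-like cells (16%, 7.17% to 29.1%) and in 9 of 72 early cells (12.5%, 5.88% to 22.4%). In late cells it ranged from 0 to 220 CPM with a median of 0.84 CPM. A single late cell, not the one with the highest CPM, gave 28.3% of the late KRT23 reads, and 8 late cells lay above the highest early cell, at 33.04 CPM. In hypoblast-like cells KRT23 reached 43.1 CPM, and in epiblast-like cells 16.2 CPM.

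PDGFRA, a receptor gene that marks the hypoblast, was taken for comparison as a gene that the other classes should lack. It had a read in all 32 hypoblast-like cells, but also in 19 of 39 late cells (48.7%), 12 of 72 early cells (16.7%) and 13 of 50 epiblast-like cells (26%). Whether these are stray reads was not tested. KRT7 and KRT23 shares in epiblast-like and early cells lay below those of PDGFRA, so these shares alone do not tell expression from stray reads. The early cell at 308 CPM of KRT7 stood apart. In the same 39 late cells the KRT7 share was 66.7% and the KRT23 share 51.3%, the latter near the 48.7% of PDGFRA. Pooled PDGFRA was at 3.16 CPM in late cells. When every cell was thinned to 2532312 reads, which left out 20 shallower cells, KRT7 had a read in 62.2% of late and 11.1% of early cells, KRT23 in 48.6% and 11.1%, and PDGFRA in 45.9% and 15.9%. At least 10 CPM of KRT7 was found in 12 late cells, of KRT23 in 9 and of PDGFRA in 7. The numbers in the same order were 3, 4 and 4 early cells, and 1, 1 and 2 epiblast-like cells.

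To compare classes, reads were summed over the cells of a class and expressed as pooled CPM, and a fold is the ratio of pooled CPM + 1. All 5 keratins were at least 2-fold higher in trophectoderm-like than in epiblast-like cells, as were 7.71% of the 15561 features tested. KRT8 stood at 3321 against 935 CPM, a 3.55-fold difference. KRT18 stood at 3816 against 853 CPM (4.47-fold) and KRT19 at 1896 against 303 CPM (6.23-fold). By the median CPM per cell KRT19 was 11.99-fold higher, and 6.89-fold higher over hypoblast-like cells. These differences were carried by nearly every cell, with KRT18 above the epiblast-like median in every trophectoderm-like cell, KRT19 in all but 1 and KRT8 in all but 2. KRT7 (8.20 against 1.09 CPM, 4.40-fold) and KRT23 (10.4 against 0.744 CPM, 6.54-fold) had a read in only 33 and 29 of the 72 early and 39 late cells. The medians per cell of KRT7 and KRT23 were 0 in both groups, and with a pseudocount of 10 CPM only the other 3 keratins passed 2-fold. For KRT23 the early cells were 1.30-fold and the late cells 14.9-fold above epiblast-like cells, so the late cells carried the call. For KRT7 these values were 2.78-fold and 6.97-fold, the early one resting mostly on 1 cell described below. The exact Poisson 95% intervals of pooled CPM, which cover counting error only, were 7.95 to 8.45 and 0.957 to 1.24 CPM for KRT7, far narrower than the spread between cells.

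Against hypoblast-like cells, 4 of the 5 keratins were at least 2-fold higher in trophectoderm-like cells, beside 8.30% of all features. KRT8 was 2.99-fold higher (1111 CPM in hypoblast-like cells), KRT18 3.79-fold (1007 CPM), KRT19 4.54-fold (417 CPM) and KRT7 5.04-fold (0.825 CPM). Much of the low KRT7 level came from 1 cell of each class, and without the highest cell KRT7 was at 0.16 CPM in hypoblast-like and 0.542 CPM in epiblast-like cells. KRT23 lay just outside the threshold at 1.97-fold, with 4.79 CPM in hypoblast-like cells. This pooled value joins opposite directions, since KRT23 in early cells was 0.392 of the hypoblast-like level and in late cells 4.48-fold above it. With the median CPM per cell and with a pseudocount of 10 CPM, KRT7 did not pass 2-fold over hypoblast-like cells either. Hypoblast-like and epiblast-like cells differed little in the keratins, apart from KRT23. KRT23 was 3.32-fold higher in hypoblast-like cells and was the only member past 2-fold there (1 of 5, beside 4.02% of all features). KRT8 was 1.19-fold, KRT18 1.18-fold and KRT19 1.37-fold higher in hypoblast-like cells. KRT7 was 0.872 of its epiblast-like level. At a clustering resolution of 1.5, where 2 late cells joined the epiblast-like class, the log2 ratio of KRT23 to epiblast-like cells became -0.71 in hypoblast-like and -0.22 in trophectoderm-like cells.

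Within the trophectoderm-like cells the 5 keratins went different ways. KRT7 and KRT23 were at least 2-fold higher in late than in early cells (2 of 5, beside 5.74% of all features), and KRT18 was at least 2-fold lower (1 of 5, beside 4.49%). KRT18 had 1952 CPM in late and 4984 CPM in early cells, 2.55-fold lower, and 0 of the 39 late cells reached the early median. KRT8 was 1.72-fold lower (2300.5 against 3961 CPM), with 4 late cells above the early median. KRT19 was at 1725 against 2004 CPM, with 18 late cells above the early median, a difference within the spread between cells.

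KRT23 was 11.4-fold higher in late cells, at 24.97 against 1.27 CPM, but by the median CPM per cell only 1.84-fold. KRT7 was 2.50-fold higher, at 13.6 against 4.82 CPM. The early KRT7 value came mostly from the cell at 308 CPM, which held 87.8% of the early reads of the gene. Without the highest cell of each class, KRT7 was at 11.4 CPM in late and 0.597 CPM in early cells, a log2 ratio of 2.95 in place of 1.32.

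The border between early and late was not sharp. With 20 other random seeds the clustering gave the same classes 14 times, and 6 times it moved 12 early cells to the late class, for 60 early and 51 late cells. No epiblast-like or hypoblast-like cell changed class. These 12 cells had intermediate CCR7 (116.3 CPM) and intermediate KRT18, at 3594 CPM, between 5255 CPM in cells that were early in both and 1952 CPM in those late in both. Their KRT8 (3965 CPM) was at the early level and their KRT19 (2621 CPM) above both classes. KRT7 was at 2.24 CPM in them and KRT23 at 2.82 CPM. With the 12 cells counted as late, the log2 ratio of late to early was -1.20 for KRT18, 0.02 for KRT19, 3.44 for KRT23 and 0.95 for KRT7, so that KRT7 no longer passed 2-fold.

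Along CCR7, taken over the 72 early and 39 late cells together, KRT18 and KRT7 lay at opposite ends. Spearman's rho with CCR7 was -0.69 for KRT18, -0.41 for KRT8, 0.05 for KRT19, 0.42 for KRT23 and 0.59 for KRT7. Within the classes, which CCR7 helped to name, the relations were weaker for each of them but KRT19. In early and late cells rho was -0.35 and -0.33 for KRT18, 0.21 and 0.46 for KRT7, -0.03 and -0.24 for KRT8, 0.14 and 0.02 for KRT23, and 0.15 and 0.02 for KRT19. For KRT8 in early cells and KRT23 in late cells hardly any relation was left. CCR7 took part in the clustering, and all points share 1 sample and the total by which CPM is divided, so these are descriptions across cells. Over the same cells the rho of KRT18 with the number of reads was 0.05, and with the number of detected genes -0.04. In early cells alone these were 0.41 and 0.44, larger in size than the rho of KRT18 with CCR7 there. For KRT8 in early cells they were 0.40 and 0.49, and for KRT19 0.21 and 0.34. KRT7 had a rho of 0.32 with the number of detected genes over the early and late cells. The part of depth in these relations was not tested.

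**Figure D2:**
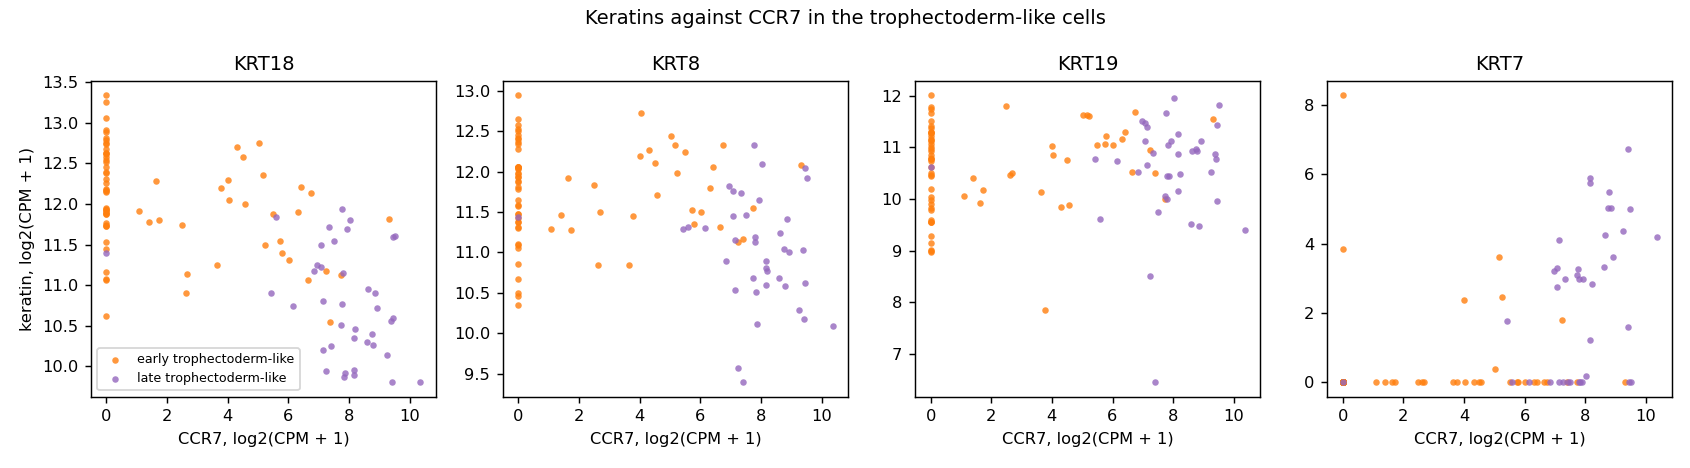
KRT18, KRT8, KRT19 and KRT7 against CCR7, each as log2(CPM + 1), in 72 early (orange) and 39 late (purple) trophectoderm-like cells; each point is 1 cell and the vertical scales differ. KRT18 is lower where CCR7 is high, KRT19 shows no trend, and KRT7 reads lie mostly at high CCR7, apart from an early cell at 308 CPM.

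KRT8 and KRT18 moved together from cell to cell. Their rho was 0.94 over all passing cells, 0.93 in epiblast-like, 0.70 in hypoblast-like, 0.77 in early and 0.92 in late cells, again with a shared total. In early cells both also rose with the number of reads and of detected genes, as given above. The ratio of KRT8 to KRT18 reads nevertheless differed between classes. It is a ratio of reads uncorrected for length, so only its change between classes can be read. Pooled, it was 1.10 in epiblast-like, 1.10 in hypoblast-like, 0.795 in early and 1.18 in late cells. In single cells the ratio had medians of 1.07, 1.21, 0.824 and 1.24 in the same order. It ranged from 0.381 to 1.59 in early cells, where 17 of 72 were above 1, and from 0.552 to 1.80 in late cells, where 33 of 39 were. The early cells were the class in which KRT18 was high relative to KRT8, and the ranges overlapped.

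**Figure D3:**
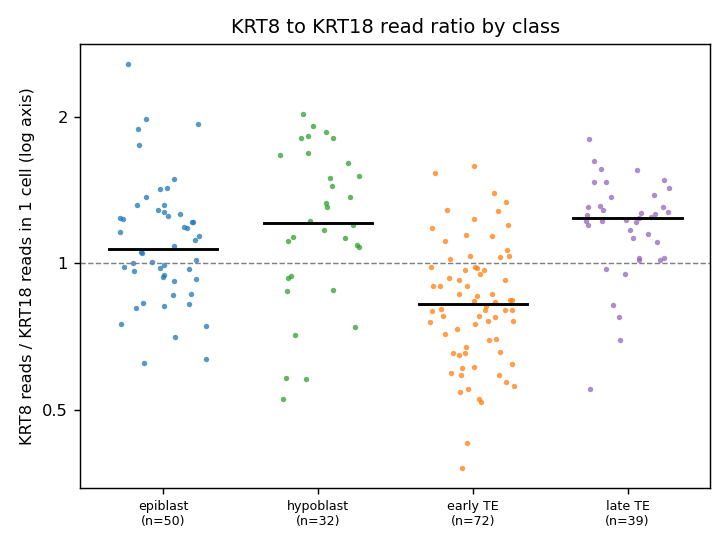
Ratio of KRT8 to KRT18 reads in each cell (log axis, dashed line at 1) in the 4 classes; each point is 1 cell and each black line the class median. The early trophectoderm-like median, 0.824, is the only one below 1.

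KRT19 changed relative to KRT18 as well. The pooled KRT19 to KRT18 read ratio was 0.355 in epiblast-like, 0.414 in hypoblast-like and 0.402 in early cells, and 0.883 in late cells. More KRT19 than KRT18 reads were counted in 16 of 39 late cells, against 2 of 72 early cells.

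The late cells themselves differed in their keratins. CGA, which encodes the alpha subunit of glycoprotein hormones, had 1077 CPM in late and 18.2 CPM in early cells. Over the 39 late cells, KRT23 went with CGA (rho 0.66), whereas KRT19 went against both CGA (rho -0.55) and KRT23 (rho -0.59). The relation of KRT23 to CGA was not particular to late cells. Its rho was 0.60 in epiblast-like, 0.51 in hypoblast-like and 0.34 in early cells. KRT7 went with CCR7 (rho 0.46) and hardly with CGA (0.09) or KRT23 (0.13). Both KRT7 and KRT23 had a read in 14 late cells, KRT7 alone in 12, KRT23 alone in 6 and neither in 7. The late cell with the lowest KRT19 had 86.3 CPM.

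**Figure D4:**
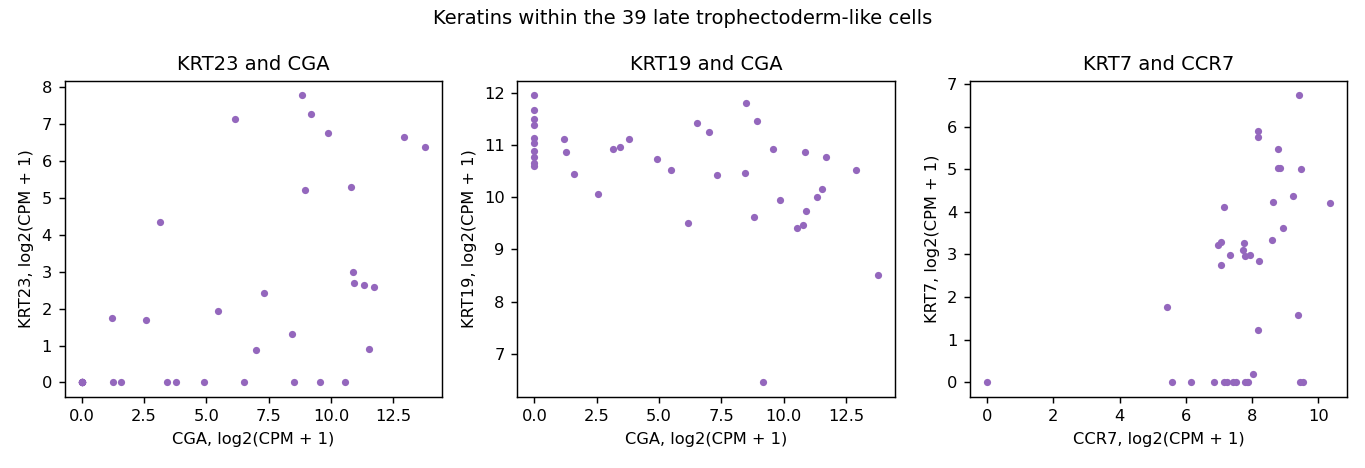
KRT23 and KRT19 against CGA and KRT7 against CCR7, each as log2(CPM + 1), in the 39 late trophectoderm-like cells; each point is 1 cell. KRT23 is higher and KRT19 lower in cells with much CGA (rho 0.66 and -0.55), and KRT7 has a rho of 0.46 with CCR7.

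In epiblast-like cells KRT19, KRT18 and KRT8 went with GATA3 but little with CDX2. The rho with GATA3, a trophectoderm transcription factor that had 70.4 CPM pooled in this class, was 0.73 for KRT19, 0.65 for KRT18 and 0.62 for KRT8 over 50 cells, and 0.25 for KRT7. With CDX2 it was 0.06 for KRT19, 0.20 for KRT18 and 0.26 for KRT8. CDX2 was sparser in this class, at 4.35 CPM pooled. It reached 10 CPM in 7 cells, against 20 for GATA3, so the 2 factors are not compared on equal terms. In the 32 hypoblast-like cells the rho with GATA3 was 0.64 for KRT18, 0.50 for KRT8 and 0.32 for KRT19, and with CDX2 it was 0.57 for KRT18, 0.43 for KRT8 and 0.13 for KRT19. The summed trophectoderm markers ranged from 20.3 to 1873 CPM in epiblast-like cells, and their rho there was 0.70 with KRT19, 0.45 with KRT8 and 0.43 with KRT18. Without the cells that reached the trophectoderm marker sum named above, pooled KRT19 in epiblast-like cells was 220.6 in place of 303 CPM, and the log2 ratio of trophectoderm-like to epiblast-like cells was 3.10 in place of 2.64. KRT18 was then at 720 and KRT8 at 783 CPM. Reads of these keratins were thus present in cells below that sum too, where the trophectoderm markers were lower but not absent. Whether mixed libraries play a part was not tested.

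The median number of members at 10 CPM or more was 3 of 5 in each class, namely KRT8, KRT18 and KRT19 in most cells. Cells with more than 3 were mostly late ones. All 5 were at that level in 3 late cells and 1 early cell. At least 4 were found in 18 of 39 late, 6 of 72 early, 7 of 32 hypoblast-like and 2 of 50 epiblast-like cells. By share of reads, the classes differed more. The 5 genes took 0.209% of all reads in epiblast-like, 0.254% in hypoblast-like, 1.10% in early and 0.602% in late cells. In the early cell with the highest share they took 2.06%.

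Few other keratins were present. Of 51 other keratin genes, 47 had a read somewhere but only 6 had one in at least 20 cells, and the 5 members made up 99.1% to 99.6% of keratin reads in each class. KRT10, a type I keratin of stratified epithelium, was lowest in epiblast-like cells (8.77 CPM), followed by hypoblast-like (12.8 CPM), early (22.3 CPM) and late cells (33.9 CPM). KRT15, the neighbour of KRT19, was at 1.40, 2.90, 13.01 and 10.2 CPM in the same order. KRT16 had a read in 20 cells, of which 4 were early and 14 late. Its 6.46 CPM in early cells came from 1 cell at 545 CPM, without which it was at 0.29 CPM. KRT80 reached 3.96 CPM in late cells, where it was 4.84-fold higher than in early cells. Of its late reads, 43.8% came from 1 cell, and without the highest cell of each class it was 3.29-fold higher. Of the 6 tested, KRT10, KRT15 and KRT16 were past 2-fold higher in trophectoderm-like over epiblast-like cells and 0 lower, beside 7.71% of all features higher and 15.2% lower. KRT10 overlaps an antisense gene, and whether strand was counted is not stated.

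Keratins are anchored at desmosomes, the cell junctions built from desmogleins, desmocollins and plaque proteins. Of 13 desmosome genes tested, 4 were at least 2-fold higher in trophectoderm-like than in epiblast-like cells and 0 lower, beside 7.71% and 15.2% of all features, with a median log2 ratio of 0.53 against -0.07 over all features. The same 4 were called without the highest cell of each class. They were all cadherins of the desmosome. DSC2 was at 235.5 and 193.6 CPM in early and late cells against 38.9 CPM in epiblast-like cells, DSC3 at 19.5 and 12.6 against 1.17 CPM, and DSC1 at 5.16 and 1.76 against 0.195 CPM. DSG1 was past the threshold at 2.05-fold, with 25 cells having a read. The plaque genes were nearer to equal. DSP, which encodes desmoplakin, the link to keratin, was 1.53-fold and JUP 1.45-fold higher. From early to late, DSG1 was 3.46-fold higher, and DSC1 and DSG3 were past 2-fold lower, also without the highest cell of each class. That is 1 higher and 2 lower of 13, beside 5.74% and 4.49% of all features.

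Hemidesmosomes and linker proteins also hold keratins. Of 8 keratin-associated genes, 0 were 2-fold higher and 1 lower in trophectoderm-like over epiblast-like cells (EVPL, envoplakin, 2.96-fold lower). Of 6 hemidesmosome genes, ITGB4 was 3.22-fold higher, and ITGA6 and COL17A1 were 2.23-fold and 2.30-fold lower. Of all features, 7.71% were higher and 15.2% lower. DST and PLEC are on both lists.

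Of 11 other intermediate filament genes tested, 1 was at least 2-fold higher in trophectoderm-like over epiblast-like cells and 5 were lower, beside 7.71% and 15.2% of all features, with a median log2 ratio of -0.99. All features thus also had more called lower than higher. NES, which encodes nestin of progenitor cells, was at 52.98 CPM in epiblast-like cells and 2.69 and 2.72 CPM in early and late cells. NEFH, the heavy neurofilament gene, was at 100.1 against 6.48 and 4.45 CPM, and BFSP2, a lens filament gene, at 29.7 against 0.293 and 0.588 CPM. VIM, the vimentin gene of mesenchyme, was at 11.5 CPM in epiblast-like cells, where 9 of 50 cells had a read and 1 cell held 50.2% of the reads. Without the highest cell of each group it was 4.65-fold lower in trophectoderm-like cells. PRPH was 6.86-fold lower in trophectoderm-like cells. The one past 2-fold higher was NEFM. None of the 11 passed 2-fold between late and early cells, where 5.74% of all features were higher and 4.49% lower. Without the highest cell of each class, LMNA also passed 2-fold higher in the first comparison and NEFM in late over early cells.

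Of 17 other genes of simple epithelium, 5 were at least 2-fold higher in trophectoderm-like over epiblast-like cells and 2 lower, beside 7.71% and 15.2% of all features, and the median log2 ratio, 0.09, was near that of all features. Without the highest cell of each group, ELF3 was also past 2-fold lower. Among those higher were the transcription factors GRHL1 (6.81-fold), GRHL2 (6.55-fold), OVOL1 (6.42-fold) and TFAP2A (2.27-fold). TFAP2A is also on the trophectoderm marker list. Lower were CLDN7, a tight junction gene, and MUC1. CDH1, which encodes E-cadherin, was 1.35-fold higher, and EPCAM was highest in hypoblast-like cells (1618 CPM), followed by early (1115 CPM), epiblast-like (972 CPM) and late cells (334 CPM). Late cells had more OVOL1 (315 against 28.4 CPM), GRHL1 (331 against 133.6 CPM) and TFAP2A than early cells, and less EPCAM, ELF3 and KLF5. These are the 3 higher and 3 lower of 17 at 2-fold, beside 5.74% and 4.49% of all features. The median log2 ratio of the list was -0.003.

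**Figure D5:**
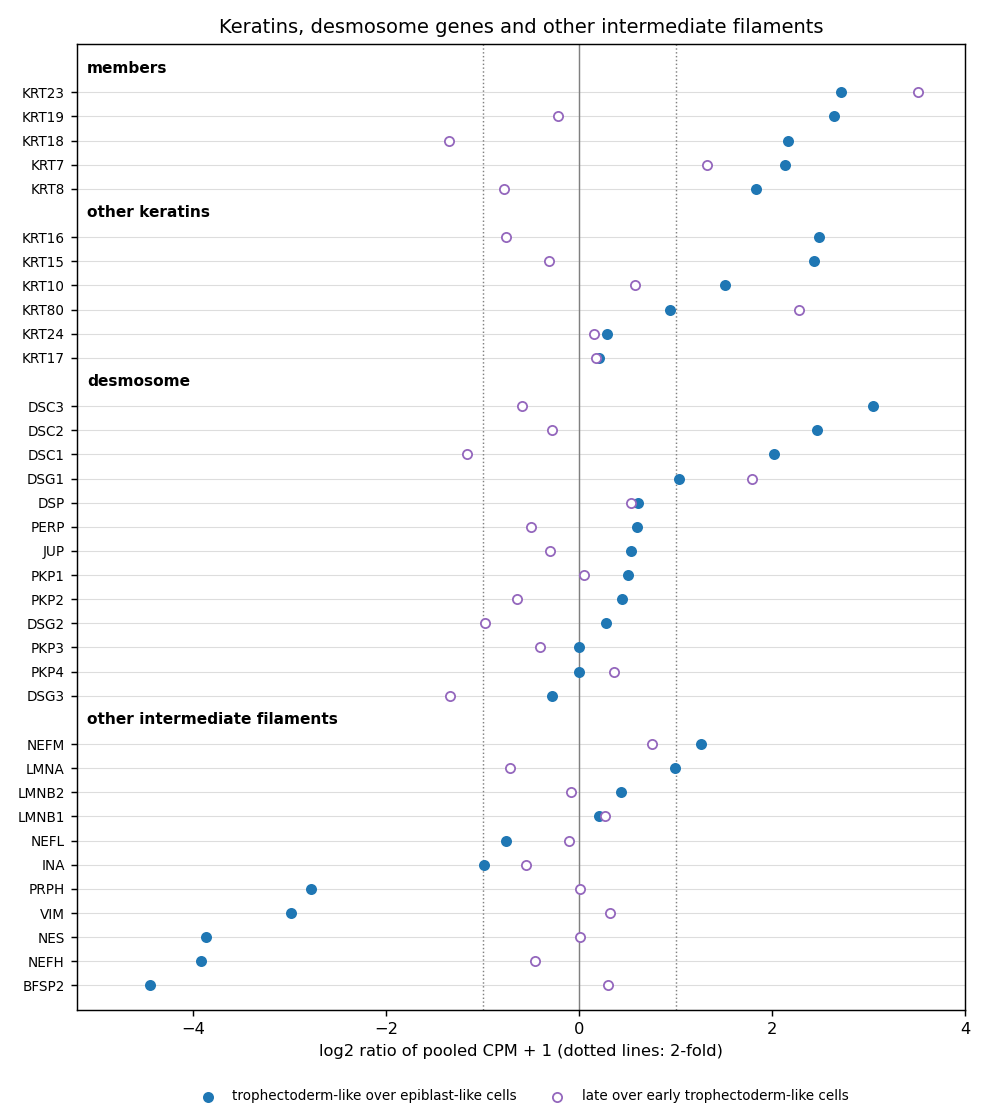
Log2 ratio of pooled CPM + 1 for the 5 members, other keratins, desmosome genes and other intermediate filaments with a read in at least 20 cells, in trophectoderm-like over epiblast-like cells (filled) and in late over early trophectoderm-like cells (open); dotted lines mark 2-fold. The 5 members are past 2-fold higher in the first comparison, where 5 other intermediate filaments are past 2-fold lower, and they spread from KRT18 below to KRT23 above in the second.

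The genes whose levels were most like each keratin were taken among 9445 genes with reads in at least 50% of cells, by Spearman's rho over all passing cells. For KRT18 they were TMPRSS2 (0.80), OLR1 (0.79) and WLS (0.79), each highest in early cells. OLR1, a lipoprotein receptor gene, was at 258 CPM in early and 48.5 CPM in late cells. For KRT8 they were STAG3 (0.81), TAGLN2 (0.80) and NHERF1 (0.79), and for KRT19 RFLNB, STARD10 and ODC1 (0.77 each). The sparse keratins had looser partners. For KRT7 they were the cyclin gene CCND3 (0.55), the steroid enzyme gene HSD3B1 (0.53) and H19 (0.51), and for KRT23 RILPL2 (0.47), the placental growth factor gene PGF (0.46) and BHLHE40 (0.46). All 6 of these were highest in late cells, with PGF at 1064 CPM against 41.1 CPM in early cells.

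Over trophectoderm-like cells alone the lists were others, except for BHLHE40, which stood beside KRT23 in both (0.57). KRT18 was then most like MX2 and S100A16 (0.78 each) and S100A10 (0.78), and S100A10 also stood first for KRT8 (0.72). MX2, an interferon-induced gene, was at 311 CPM in early and 22.8 CPM in late cells. KRT7 was most like CRYBG1 (0.69), WIPI1 (0.63) and VGLL1 (0.61), and VGLL1, a trophoblast cofactor gene, was at 566 CPM in late and 159.5 CPM in early cells. KRT23 was next most like BNIP3 and PDLIM2 (0.55 each). KRT19 was most like SNRPE (0.62), PFN1 (0.61) and TXNDC17 (0.61), whose levels differed little between early and late cells.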

How the data were processed

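Single cells of 1 condition were sequenced by SMART-seq2, and the authors deposited raw read counts per Ensembl chimpanzee gene, without normalization or molecular identifiers. According to the study's methods, reads were trimmed with FastP and aligned to the chimpanzee genome and counted with STAR. The submitters' processing notes instead name Trim Galore 0.6.6, STAR 2.7.7a and GRCh38. Strand is not stated. KRT8 and KRT18 have processed copies in primate genomes, and reads shared with such copies could be lost or misplaced.

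Identifiers were given symbols from a table (18783 of 33729 matched), and those sharing a symbol were summed. Cells with at least 4000 reads and 8000 detected genes were kept. Genes in at least 20 cells, without keratins, were normalized, log-transformed and clustered with Scanpy 1.11.5 (50 components, 30 neighbours, Leiden resolution 1, leidenalg 0.10.2, seed 0) in Python 3.11.15. Clusters were named from marker lists, of which TDGF1 was unmatched, as was EPPK1 among keratin-associated genes. Named genes were the members, the listed genes, CCR7, CDX2 and the 3 genes most like each member. The members and lists were chosen with earlier results of these data known. Folds used a pseudocount of 1 CPM and a 2-fold threshold. The pooled folds and the clustering were tested on simulated cells in which only genes of higher level changed. Sparse genes such as KRT7 and KRT23 were not covered. Intervals are 95%. Those of read levels cover counting error only, since copies of 1 cDNA are counted more than once, and those of shares of cells treat the cells of 1 sample as independent draws. Alternatives changed the filters, clustering, summary, pseudocount, thresholds and seed. The values of 1 listed gene are not reported here.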

Additional observations from a re-analysis of the deposited data

Results flagged for a closer look

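The 24 cells left out by the gene minimum, with 5792 to 3863814 reads each, lie outside the comparisons and also had keratin reads. KRT8 and KRT18 had a read in 24 of 24 of them and KRT19 in 22. KRT8 ranged from 107.8 to 4656 CPM in these cells and KRT18 from 140.8 to 6393 CPM, each reaching from the epiblast-like into the trophectoderm-like range. KRT23 had a read in 3 of them and KRT7 in 2. These cells were given no class.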

How the results depend on the processing

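Of 1179 values recomputed under alternatives, 1151 moved by less than the limits set, 26 moved by more and 2 reversed. A reversal was counted only for a log2 ratio of 1 or more in size; smaller ones changed sign too, with KRT19 in late over early cells going from -0.22 to 0.15 with 15 neighbours and 0.02 with another seed, and KRT7 in hypoblast-like over epiblast-like cells from -0.20 to 0.16 with thinned reads. Both reversals were KRT23 at a Leiden resolution of 1.5, where its log2 ratio to epiblast-like cells was -0.22 in trophectoderm-like and -0.71 in hypoblast-like cells. There a cluster of 12 cells, 10 epiblast-like and 2 late trophectoderm-like, was named epiblast-like; it had 907 CPM of POU5F1, 425 CPM of GATA3 and 34.7 CPM of KRT23, and the number of keratins 2-fold higher in hypoblast-like over epiblast-like cells became 0. That number was also 0 with the median CPM per cell, with a pseudocount of 10 and at a 4-fold threshold. With the median CPM per cell and with a pseudocount of 10, 3 keratins were higher in trophectoderm-like over epiblast-like cells. The number higher in late over early cells was 1 with the median CPM per cell, a pseudocount of 10, 4-fold, 15 neighbours and another random seed, which was chosen after seeing the data, as was leaving out the highest cell of each class, for listed genes too, or the cells with trophectoderm markers. With 15 neighbours early cells made up 25.9% and late cells 31.6%. At 4-fold, 2 keratins were higher over hypoblast-like cells and 0 were lower in late over early cells. The shares of all features given above belong to the main settings, so these counts under alternatives have no such share beside them. At 1 CPM the median number of keratins in late cells was 4. The log2 ratio of KRT18 ranged from 2.09 to 2.45 in trophectoderm-like over epiblast-like cells and from -1.40 to -1.08 in late over early cells.

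With 1 sample, nothing measures the spread between blastoids or lines. The ratio of all type II to all type I reads per length was not run, since gene lengths were not used here. KRT7 and KRT23 rest on few cells and few reads. No paired analysis was possible because the cells belong to 1 group.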
